A study of Nomascus leucogenys and Hoolock leuconedys and Nomascus gabriellae with 23 samples.

Results

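The protein-coding genes NEMF, USP32, EXOC6B, COMMD1, AGBL1 and TYW1B held more LAVA insertions than nearly all other genes in a survey of gibbon genomes. LAVA is a composite retrotransposon of gibbons, named after its LINE, AluSz, VNTR (tandem repeat) and Alu-like parts. These 6 genes were chosen because 4 to 6 rows of the LAVA table bear each name, and they hold 30 of the 5490 listed sites. That number chose the genes and is therefore a description with no test. NEMF and USP32 had 6 sites each, EXOC6B and TYW1B 5 each, and COMMD1 and AGBL1 4 each. The choice is not exhaustive. FHIT had 5 sites, more than COMMD1 and AGBL1, and was left out. Of the 13 gene names with 4 sites in the gene body, 8 are listed as protein-coding in RefSeq and 2 of those were taken. GMDS, N4BP2, NUP210L, OSBPL10, RBFOX1 and RCOR1 had 4 sites and were left out. UQCC1 also had 4 sites and was left out, and like TYW1B it was not matched in RefSeq.

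Blood DNA of 23 gibbons was sequenced as whole genomes. The genus Nomascus had 13 animals, with 11 N. leucogenys beside 2 N. gabriellae. The 5 Hylobates animals were 2 H. moloch and 1 each of H. muelleri, H. lar and H. pileatus. Hoolock had 3 animals, all H. leuconedys, and Symphalangus 2, both S. syndactylus. No treatment or age is given in the labels. For each site and animal the deposited table gives a call, in which 1 marks a carried insertion and 0 an insertion that is not carried. The read depth behind the calls is unknown. Kinship between the animals is unknown, and every p-value takes them as independent.

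Repeats copied by the LINE machinery are written into the genome from their 3' end, and many copies lack part of the 5' end. A new copy is seldom removed, so animals that share one at the same position generally inherited it from a common ancestor. A copy inside an intron is transcribed with its host gene and can be removed with the intron. The direction relative to the gene decides which signals of the element the gene's transcript contains.

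Sites take 2 forms in the table. A single-base site is given as 1 position, and an interval site spans the whole element. The 30 sites comprised 23 single-base and 7 interval sites (23.3% interval, exact 95% interval 9.93 to 42.3), against 536 interval sites among 2715 other intronic sites (19.7%, 18.3 to 21.3). These and all later intervals cover counting error only. All 1118 interval sites of the table are carried in Nomascus, so the presence of that form there sets no site apart. Sites are numbered below by position within each gene, and positions follow the table, counted from 1. The genome build behind them is unknown here. All 30 sites are classed as intronic, and no site of another name lies between the first and the last site of any of the 6 genes.

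**Figure D1:**
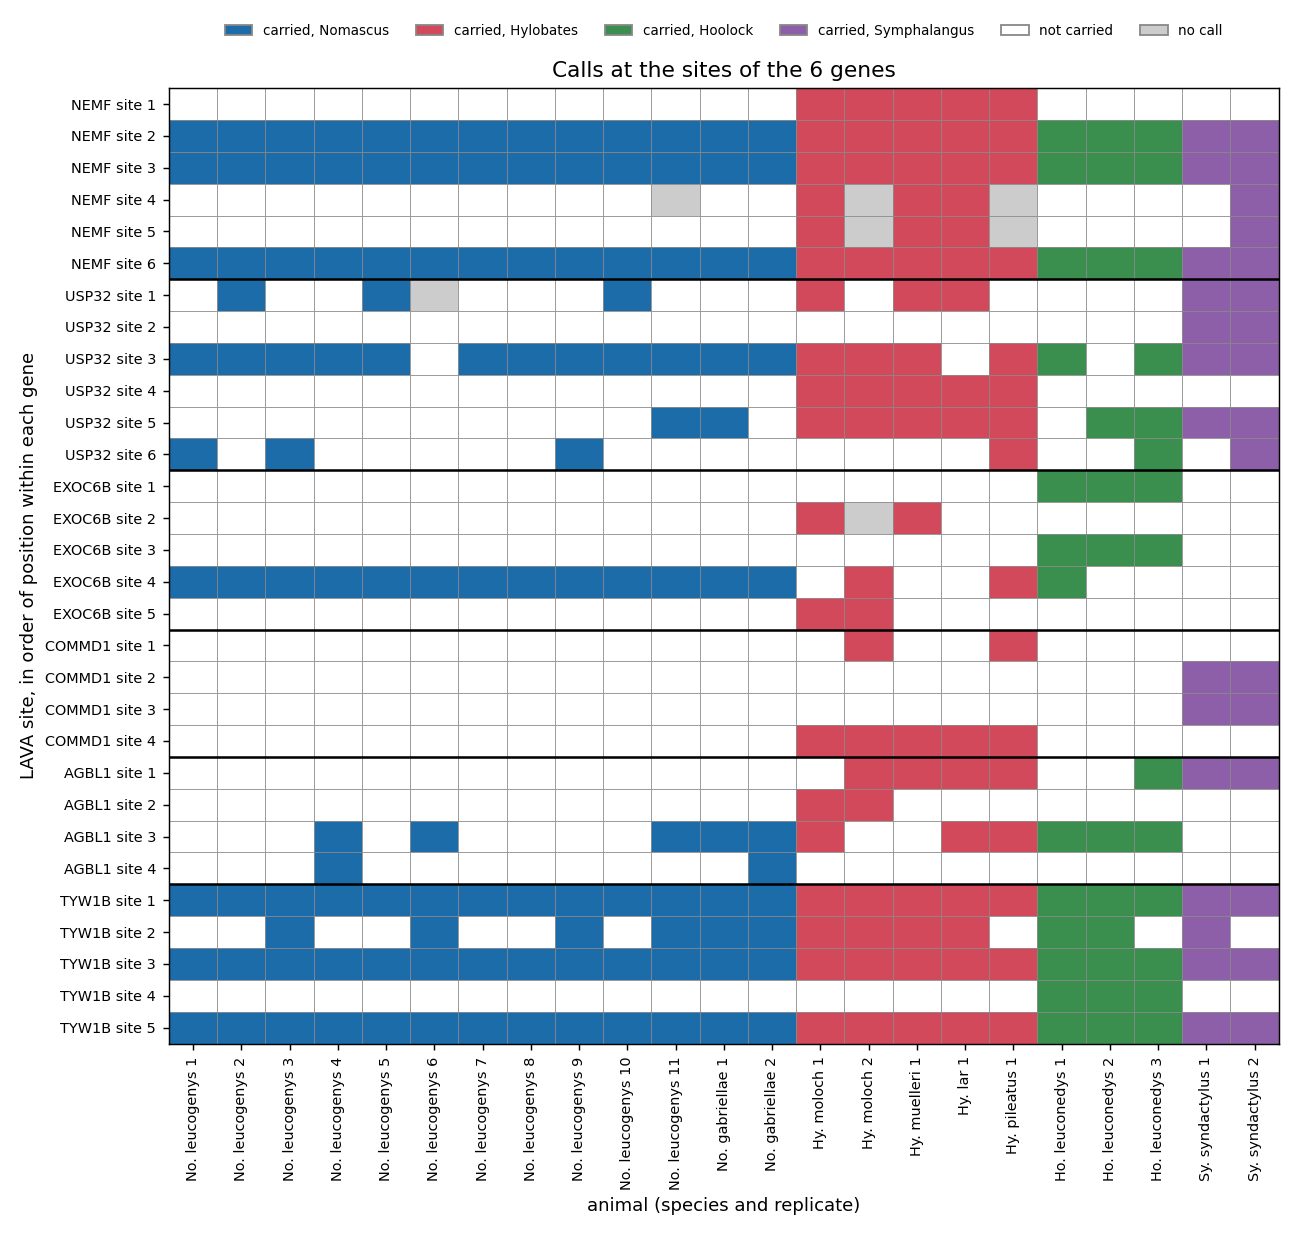
Calls at the 30 sites (rows, by position within each gene) in 23 animals (columns, by species and replicate). Filled squares mark carried insertions in the colour of the genus, white squares insertions that are not carried, and grey squares the 7 missing calls. All 6 rows of NEMF sites 2, 3 and 6 and TYW1B sites 1, 3 and 5 are filled in all 23 animals, and 9 rows are filled in every animal of 1 genus and in no other animal.

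NEMF encodes a ribosome quality control factor that binds stalled large ribosomal subunits and recruits the ubiquitin ligase Listerin. The gene (ENSG00000165525) had its 6 sites on chromosome 1a from 81667901 to 81700309, a stretch of 32.4 kb, the shortest of the 6 genes. Site 2 (81670282 to 81670991, 710 bp, antisense), site 3 (81678680 to 81679871, 1192 bp, sense) and site 6 (81699430 to 81700309, 880 bp, antisense) are interval sites carried by all 23 animals. Site 1 (81667901, 1827 bp, sense) was carried by all 5 Hylobates and by 0 of the 18 other animals.

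NEMF sites 4 and 5 lie 28 bp apart, at 81681062 and 81681090, both in sense orientation, with element lengths of 1412 and 1599 bp. Both were carried by H. moloch replicate 1, H. muelleri, H. lar and S. syndactylus replicate 2. Both also lacked a call in H. moloch replicate 2 and H. pileatus, and site 4 lacked one in N. leucogenys replicate 11 as well. No other site of the table has this set of carriers. Among 489 pairs of consecutive sites under one gene name, this was the only pair within 100 bp, and over all 5464 neighbouring pairs of the table there were 2. Whether the pair marks 1 insertion or 2 was not tested. Counted once, NEMF would have 5 sites.

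USP32 encodes a membrane-anchored deubiquitinase, an enzyme that takes ubiquitin off proteins. Its 6 sites (ENSG00000170832) lay on chromosome 14 from 12544243 to 12751359, over 207.1 kb, with gaps of 20.6 to 60.5 kb. All 6 are single-base sites, and 0 were carried by all 23 animals. Site 2 (12566700, 452 bp, sense) was carried by both Symphalangus and no other animal, and site 4 (12632243, 1829 bp, antisense) by all 5 Hylobates and no other animal.

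The remaining USP32 sites crossed genera. Site 3 (12587310, 1625 bp, antisense) was carried by 12 of 13 Nomascus, 4 of 5 Hylobates, 2 of 3 Hoolock and 2 of 2 Symphalangus. The animals without it were N. leucogenys replicate 6, H. lar and Hoolock leuconedys replicate 2. Site 5 (12692789, 429 bp, sense) had 2 carriers in Nomascus, 5 in Hylobates, 2 in Hoolock and 2 in Symphalangus. Site 6 (12751359, 1626 bp, antisense) was carried by some animals of each genus and by all animals of none, with 3 carriers in Nomascus and 1 in each of the others. Site 1 (12544243, 451 bp, sense) had 3 carriers in Nomascus, 3 in Hylobates, 0 in Hoolock and 2 in Symphalangus, with 1 missing call.

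EXOC6B encodes a subunit of the exocyst, the complex that tethers secretory vesicles to the plasma membrane. Its 5 sites (ENSG00000144036) were spread over 546 kb of chromosome 14, from 40897990 to 41443961, the longest stretch of the 6 genes, with gaps of 76.4 to 252 kb. Sites 1, 2, 3 and 5 are single-base sites carried in a single genus. Sites 1 (40897990, 1833 bp, sense) and 3 (41236230, 1837 bp, antisense) were each carried by all 3 Hoolock and no other animal. Site 2 (41149709, 1825 bp, antisense) was carried by H. moloch replicate 1 and H. muelleri, with no call in H. moloch replicate 2. Site 5 (41443961, 1631 bp, antisense) was carried by both H. moloch only.

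EXOC6B site 4 (41312668 to 41313562, 895 bp, antisense) is an interval site with an uneven distribution. It was carried by all 13 Nomascus, by H. moloch replicate 2 and H. pileatus among the 5 Hylobates, by 1 of 3 Hoolock and by 0 of 2 Symphalangus. It is the only one of the 7 interval sites of these genes that was not carried by every animal. Of the 536 interval sites in other introns, 439 (81.9%) were carried by all animals.

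COMMD1 encodes a protein of the Commander complex, which returns membrane proteins from endosomes to the cell surface, and it takes part in copper handling. All 4 of its sites (ENSG00000173163) are single-base sites of a single genus, on chromosome 14 from 30073471 to 30250046 with gaps of 45.2 to 81.3 kb. Sites 2 (30154750, 1351 bp, antisense) and 3 (30199935, 1655 bp, sense) were carried by both Symphalangus only. Site 4 (30250046, 1654 bp, antisense) was carried by all 5 Hylobates only. Site 1 (30073471, 452 bp, antisense) was carried by H. moloch replicate 2 and H. pileatus only, a set of carriers shared by 5 sites of the whole table. The COMMD1 sites of Nomascus and of Hoolock numbered 0.

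AGBL1 encodes a cytosolic carboxypeptidase that removes glutamates from proteins such as tubulin. Its 4 single-base sites (ENSG00000273540) lay on chromosome 6 from 105603763 to 105884183, with gaps of 70 to 109 kb, and 3 of them are 452 to 464 bp long. Site 1 (105603763, 453 bp, antisense) was carried by 0 of 13 Nomascus, 4 of 5 Hylobates, 1 of 3 Hoolock and 2 of 2 Symphalangus. Site 2 (105712671, 464 bp, sense) was carried by both H. moloch only. Site 3 (105814147, 452 bp, antisense) was carried by 5 Nomascus, among them both N. gabriellae, by 3 Hylobates, by all 3 Hoolock and by 0 Symphalangus. Site 4 (105884183, 1476 bp, antisense) was carried by N. leucogenys replicate 4 and N. gabriellae replicate 2, and it is the only one of the 30 sites carried in Nomascus alone.

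TYW1B is a copy of TYW1, the enzyme that forms the tricyclic core of wybutosine, a modified base beside the anticodon of phenylalanine transfer RNA. The copies are nearly identical in human, and how reads or names were placed between them is unknown here, so the placement of these sites is uncertain. The 5 sites (ENSG00000277149) lay on chromosome 17 from 46873457 to 47093133. Sites 1 (46873457 to 46874744, 1288 bp), 3 (47058757 to 47059613, 857 bp) and 5 (47092131 to 47093133, 1003 bp) are antisense interval sites carried by all 23 animals. Site 4 (47077038, 1832 bp, sense) was carried by all 3 Hoolock only. Site 2 (46930719, 452 bp, antisense) was carried by 6 of 13 Nomascus, 4 of 5 Hylobates, 2 of 3 Hoolock and 1 of 2 Symphalangus.

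**Figure D2:**
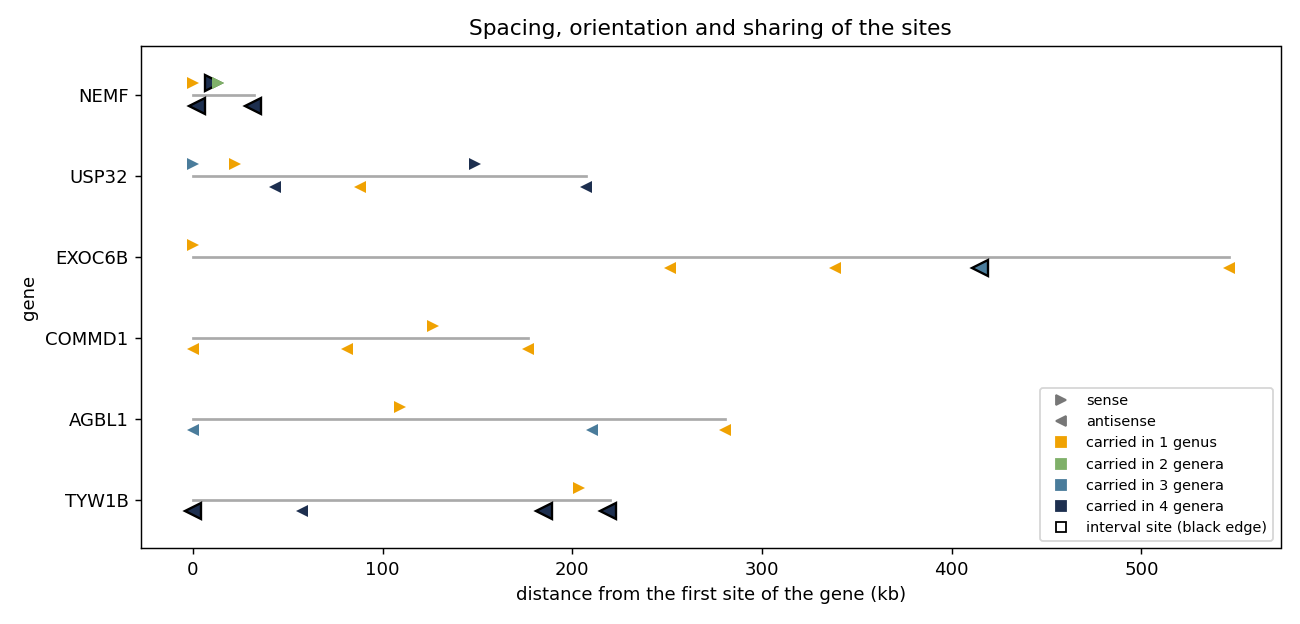
Position of each site as the distance in kb from the first site of its gene. Arrowheads pointing right and above the line are sense to the gene and those pointing left and below it antisense, colour gives the number of genera with a carrier, and a black edge marks interval sites. NEMF holds its 6 sites within 32.4 kb, EXOC6B its 5 within 546 kb, and all COMMD1 sites have 1 genus.

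Spacing differed between the genes. Per 100 kb between the first and the last site there were 18.5 sites in NEMF, 2.90 in USP32, 2.28 in TYW1B, 2.27 in COMMD1, 1.43 in AGBL1 and 0.916 in EXOC6B. The stretch between outer sites is not the length of the gene, for which no annotation of the same build was used. The median gap between consecutive sites was 53 kb in the 6 genes (24 gaps), and 36.4 kb over all 489 gaps within one gene name. Genes on chromosome 14, USP32, COMMD1 and EXOC6B, held 15 of the 30 sites. That chromosome holds 275 of 5490 sites (5.01%) in all. All sites of a gene share its chromosome, so the 15 sites are not separate placements, and the shares were not tested.

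The nearest listed sites outside the genes differed as widely. On the side of lower positions, the next site to NEMF was an intronic one of KLHDC2 at 34.9 kb, and the next site to AGBL1 was an intronic one of AKAP13 at 655 kb. Above its last site, NEMF had an intergenic one at 16.5 kb and AGBL1 an intronic one of DET1 at 1807 kb. USP32 had its next sites 423 kb below and 928 kb above. COMMD1 had an intergenic site 31.2 kb below its first site, and 479 kb without a site above its last.

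Element length fell into separate ranges. At single-base sites the listed length equals the part of the LAVA consensus that is present, which ends at consensus position 1838 or 1839, so length and 5' start are the same measurement. The 23 single-base sites had a median of 1599 bp (range 429 to 1837), against 1343 bp (range 291 to 1839) at 2179 other intronic ones. Of these, 8 were 400 to 500 bp long, 3 were 1300 to 1500 bp, 6 were 1500 to 1700 bp and 6 were 1800 bp or longer. These ranges were set after the lengths were seen, and hold all 23. Of the other intronic single-base sites, 657 (30.2%), 231 (10.6%), 374 (17.2%) and 495 (22.7%) lay in the same ranges. The most complete copy was EXOC6B site 3, which starts at consensus position 1.

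Interval sites had a median length of 895 bp (range 710 to 1288, 7 sites) against 1335.5 bp (range 550 to 5113) at 536 other intronic interval sites. TYW1B site 1 was 265 bp longer than the consensus stretch it was matched to, and NEMF site 3 was 65 bp longer. The rest departed from their stretch by 24 bp or less, among them EXOC6B site 4 with 24 bp.

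**Figure D3:**
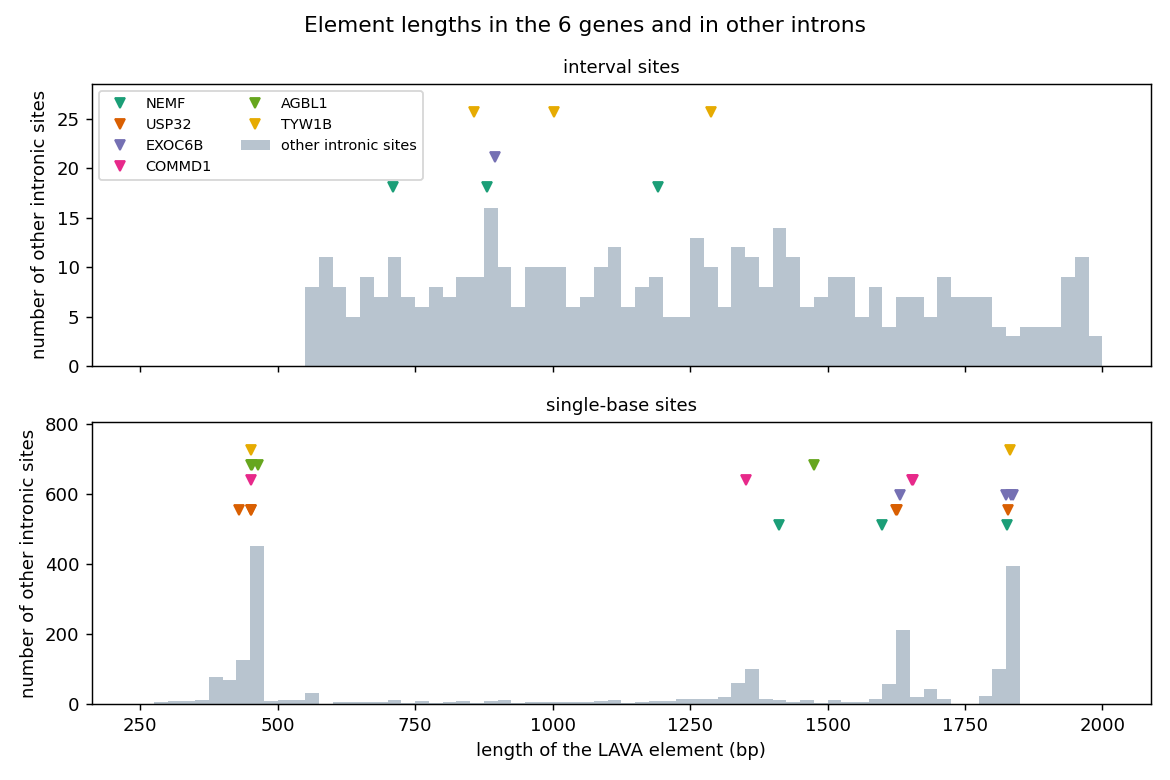
Element lengths in bp (x axis) at interval sites (upper panel) and single-base sites (lower panel). Grey bars count other intronic sites in 25 bp steps on a linear axis, with 77 interval sites over 2000 bp not drawn, and triangles mark the sites of each gene at a height without meaning. The 23 single-base sites fall in 4 ranges, the shortest at 429 to 464 bp and the longest at 1825 to 1837 bp.

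The lengths went with who carried a site. All 6 single-base sites of 1800 bp or longer (NEMF site 1, USP32 site 4, EXOC6B sites 1 to 3 and TYW1B site 4) were carried in 1 genus, and 5 of them by every animal of that genus. Among other intronic sites of that length, 431 of 495 (87.1%) were carried in 1 genus and 317 (64%) by every animal of that genus and no other. Of the 17 shorter single-base sites of the 6 genes, 8 (47.1%) were carried in 1 genus, against 981 of 1684 (58.3%). The limit of 1800 bp was chosen after the lengths were seen.

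The opposite pattern, a site carried by some but not all animals in 2 or more genera, was seen at 5 of 8 single-base sites under 540 bp (62.5%, exact 95% interval 24.5 to 91.5). They are USP32 sites 1 and 5, AGBL1 sites 1 and 3 and TYW1B site 2. In other introns it was seen at 320 of 784 such sites (40.8%, 37.4 to 44.3). At single-base sites of 540 bp or more it was seen at 4 of 15 (26.7%, 7.79 to 55.1) in the 6 genes, namely NEMF sites 4 and 5 and USP32 sites 3 and 6, and at 254 of 1395 (18.2%, 16.2 to 20.3) in other introns. Of the interval sites, 1 of 7 in the 6 genes (EXOC6B site 4) and 39 of 536 in other introns were of this kind. The intervals of the 6 genes include the values of other introns in all 3 classes. The limit of 540 bp is the shortest interval element of the table. NEMF sites 4 and 5 enter only because missing calls count as not carried, in both sets. Every Hylobates animal with a call at them carried both, and whether the pair is 1 insertion was not tested. The part of read depth and calling in these mixed distributions was not tested.

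**Figure D4:**
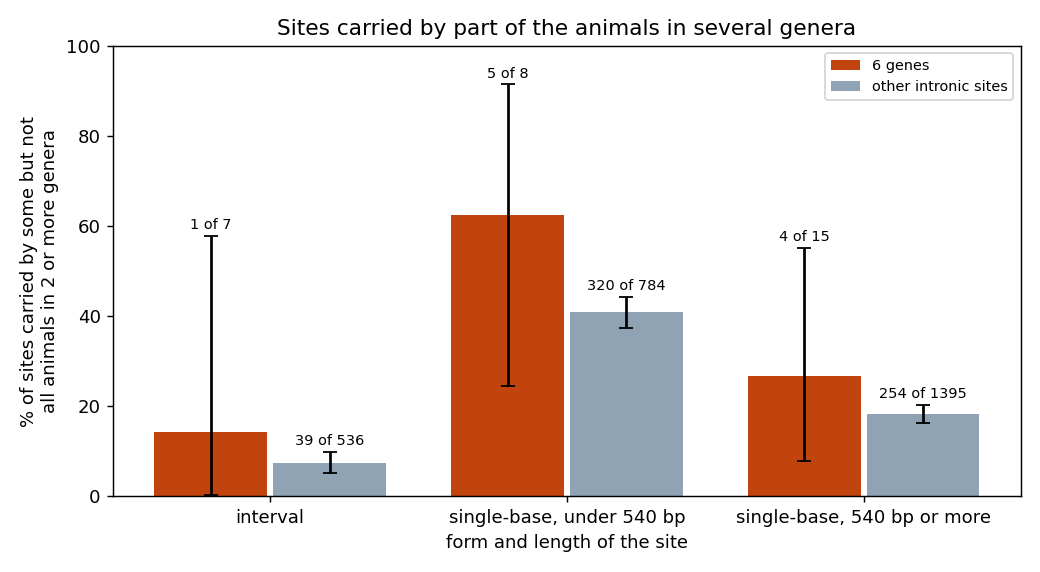
Percentage of sites carried by some but not all animals in 2 or more genera, by form and length, in the 6 genes (left bars) and in other introns (right bars). Error bars are exact 95% binomial intervals, and the numbers above them are counts of sites. Missing calls count as not carried. In both sets single-base sites under 540 bp have the highest share, 5 of 8 and 320 of 784.

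In numbers of genera, 14 of the 30 sites (46.7%) were carried in 1 genus, 2 in 2, 4 in 3 and 10 (33.3%) in all 4. Other introns had 52.3% in 1 genus and 24.5% in 4. Of the 14 sites of a single genus, 7 were of Hylobates, 3 of Hoolock, 3 of Symphalangus and 1 of Nomascus, and 9 of them (64.3%) were carried by every animal of that genus, against 58.8% of 1419 in other introns. Every listed site has at least 2 carriers, so a Symphalangus-only site is carried by both animals of that genus by construction. This holds for the 3 sites here and for all 526 such sites of the table. As a share of the 30 sites, Hylobates-only sites made up 23.3% (9.93 to 42.3) and Hoolock-only sites 10% (2.11 to 26.5). In other introns Hylobates-only sites made up 14.7% and Hoolock-only sites 20.6%. Each of the 2 values from other introns lies inside the interval of the 6 genes.

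The sense share of other introns lay inside the counting interval of the 6 genes. Of the 30 sites, 11 (36.7%, exact 95% interval 19.9 to 56.1) were sense to the gene, against 1043 of 2715 (38.4%, 36.6 to 40.3) in other introns. NEMF had 4 sense and 2 antisense sites and USP32 3 of each. EXOC6B and TYW1B had 1 sense and 4 antisense sites each, and COMMD1 and AGBL1 1 sense and 3 antisense sites each. Among interval sites 1 of 7 was sense (NEMF site 3) and among single-base sites 10 of 23.

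Per animal, the 6 genes together held 9.54 ± 1.05 carried sites in the 13 Nomascus (mean ± SD), 17 ± 1.22 in the 5 Hylobates, 13 ± 1 in the 3 Hoolock and 15 ± 1.41 in the 2 Symphalangus. The lowest, median and highest values were 8, 9 and 11 in Nomascus and 16, 17 and 19 in Hylobates. The Hoolock animals had 13, 12 and 14 and the Symphalangus animals 14 and 16. Nomascus and Hylobates did not overlap with each other, while Symphalangus overlapped with both Hylobates and Hoolock. Over all sites of the table Nomascus and Hylobates did not overlap either, with 1478 to 1736 and 1995 to 2411 carried sites per animal. Within the 6 genes the difference between these genera lay at single-base sites, with 2.54 ± 1.05 per animal in Nomascus and 10.6 ± 1.52 in Hylobates. At interval sites the values were 7 ± 0 in Nomascus, 6.4 ± 0.55 in Hylobates, 6.33 ± 0.58 in Hoolock and 6 ± 0 in Symphalangus. All 1118 interval sites of the table are carried in Nomascus, so a split by form does not treat the genera alike. The same split per animal was not made over the whole table, so it marks no trait of these genes. As a share of all sites an animal carried, the 6 genes made up 0.769% ± 0.035 in Hylobates, 0.661% ± 0.061 in Symphalangus, 0.598% ± 0.070 in Nomascus and 0.463% ± 0.034 in Hoolock. By this share Nomascus and Hylobates overlapped, with N. leucogenys replicate 11 at 0.729% and H. muelleri at 0.716%. Since the genes were picked on the sites of all animals together, these levels carry no test.

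The order of genera changed from gene to gene. In NEMF, Hylobates carried 5.2 ± 1.10 sites and Symphalangus 4 ± 1.41, which overlap, and each Nomascus and Hoolock animal carried 3. The Hylobates value counts missing calls as not carried. H. moloch replicate 2 and H. pileatus, without a call at sites 4 and 5, had 4, and the other 3 animals had 6. In USP32, Symphalangus carried 4.5 ± 0.71 and Hylobates 3.6 ± 0.55, above Hoolock with 1.67 ± 1.15 and Nomascus with 1.54 ± 0.66, and the last pair did not differ beyond their spread. Hoolock and Hylobates overlapped too, since Hoolock leuconedys replicate 3 carried 3 sites, as did H. moloch replicate 2 and H. lar. N. leucogenys replicate 6 carried 0 of the USP32 sites and is the only animal without one, with a missing call at site 1. EXOC6B was highest in Hoolock with 2.33 ± 0.58 and 0 in both Symphalangus, with Hylobates at 1.2 ± 0.84 and every Nomascus at 1. Hoolock and Hylobates overlapped, as 2 of the 3 Hoolock animals and both H. moloch carried 2 sites.

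COMMD1 sites were carried by Symphalangus (2 in each animal) and Hylobates (1.4 ± 0.55), and by 0 of the 16 Nomascus and Hoolock animals. AGBL1 ranged from 0 to 2 sites per animal, with 1.8 ± 0.45 in Hylobates, 1.33 ± 0.58 in Hoolock, 1 in each Symphalangus and 0.538 ± 0.776 in Nomascus. Within Nomascus, AGBL1 sites were carried by both N. gabriellae (1 and 2 sites) and by 3 of 11 N. leucogenys. In TYW1B, Hoolock carried 4.67 ± 0.58, and Hylobates (3.8 ± 0.45), Symphalangus (3.5 ± 0.71) and Nomascus (3.46 ± 0.52) did not differ beyond their spread. Hoolock overlapped with each of them. Hoolock leuconedys replicate 3 carried 4 sites, which was also the highest value in Hylobates, Symphalangus and Nomascus.

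**Figure D5:**
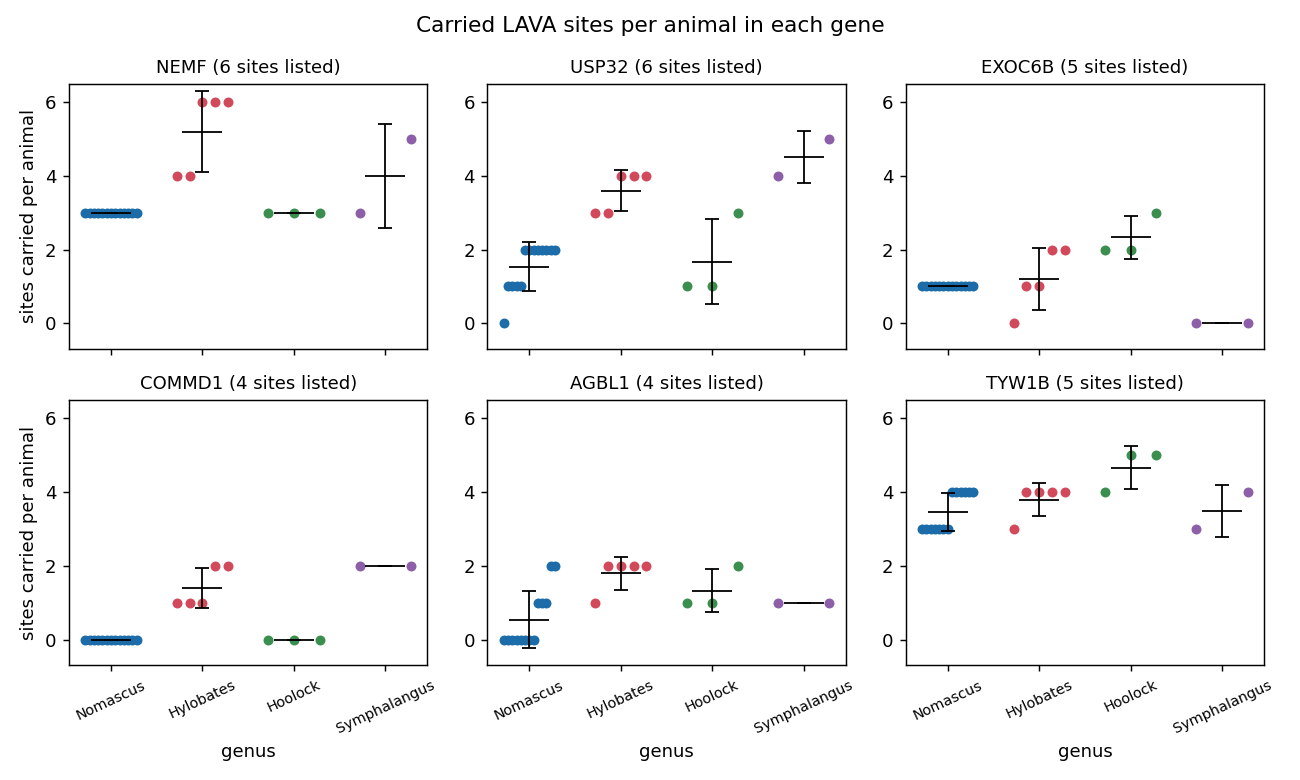
Number of LAVA sites carried per animal (y axis) in each gene, by genus (x axis). Each dot is an animal, and the horizontal bar and whiskers are mean and SD (n = 13, 5, 3 and 2). In NEMF all Nomascus and Hoolock animals sit at 3, and in COMMD1 they sit at 0.

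Carrier frequency was tested site by site, each genus against all animals outside it, by Fisher's exact test (two-sided) with Benjamini-Hochberg adjustment over all 5490 sites. A site was called at an adjusted p under 0.05. The 4 comparisons use the same animals, so a site of 1 genus also enters the other three on the opposite side. The genes were selected on the number of sites over all animals together, and every listed site has at least 2 carriers. A site of 1 genus was therefore listed, and counted towards its gene, only through carriers of that genus. All 4 COMMD1 sites are of this kind, as are all sites called below as more frequent in Hylobates, Hoolock or Symphalangus. The tests describe single sites and lend nothing to the choice of genes.

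Compared with the other animals, 1 of the 30 sites (3.33%) was more frequent in Nomascus, against 3.01% of the whole table, and 2 (6.67%) were less frequent, against 4.79%. EXOC6B site 4 was carried by 13 of 13 Nomascus and 3 of 10 other animals (Fisher's exact test, adjusted p = 0.00824). It is an interval site, and no interval site of the table lacks a carrier in Nomascus. USP32 site 5 was carried by 2 of 13 Nomascus and 9 of 10 others (Fisher's exact test, adjusted p = 0.0107). AGBL1 site 1 was carried by 0 of 13 Nomascus and 7 of 10 others (Fisher's exact test, adjusted p = 0.00824). NEMF site 1, USP32 site 4 and COMMD1 site 4, carried by 0 of 13 Nomascus and 5 of 10 others, were just short of a call (Fisher's exact test, adjusted p = 0.0545). Without H. muelleri their adjusted p was 0.113, the highest on leaving out 1 animal (Fisher's exact test). They were called on leaving out any single animal of Hoolock or Symphalangus, which raised the count from these genes to 6. The less frequent sites of the whole table rose with them, to between 470 and 481 (8.56% to 8.76%). With Benjamini-Yekutieli adjustment, which allows any dependence between sites, none of the 3 called sites kept its call (adjusted p = 0.0757 to 0.0988, Fisher's exact test).

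In Hylobates 3 of the 30 sites were more frequent than in the other animals, 10% of the sites against 11.5% of the whole table, and 0 were less frequent, against 0.856%. The table's share changed when 1 animal was left out, to 7.25% to 7.29% without any 1 Nomascus animal, 6.89% without H. moloch replicate 1, 7.47% without H. moloch replicate 2 and 7.14% without H. muelleri. It was 10.5% without H. lar or H. pileatus, and 12.4% to 12.6% without any 1 Hoolock or Symphalangus animal. The 6 genes had the same 3 sites called in each of these settings but 1. Without S. syndactylus replicate 2 they had 5 of the 30 sites called, with 12.6% of the table. The count of less frequent sites was also 0 at an unadjusted p under 0.05 in Hylobates, Hoolock and Symphalangus. NEMF site 1, USP32 site 4 and COMMD1 site 4 were carried by 5 of 5 Hylobates and 0 of 18 others (Fisher's exact test, adjusted p = 0.000841). The NEMF pair of sites 4 and 5, with 3 of 5 Hylobates and 1 of 18 others, was not called (Fisher's exact test, adjusted p = 0.135). It was called without S. syndactylus replicate 2 (adjusted p = 0.0472), its only carrier outside Hylobates, and when missing calls were left out (adjusted p = 0.0432 and 0.0373). Without H. moloch replicate 1 the adjusted p of the pair was 0.417 (Fisher's exact test), and Benjamini-Yekutieli adjustment gave no call either.

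In Hoolock 3 sites were more frequent, 10% of the 30 against 18.7% of the table, and 0 were less frequent, against 0.182%. EXOC6B sites 1 and 3 and TYW1B site 4 were carried by 3 of 3 Hoolock and 0 of 20 others (Fisher's exact test, adjusted p = 0.00326). In Symphalangus 3 sites were more frequent, 10% against 9.58%, and again 0 were less frequent, against 0.0364%. USP32 site 2 and COMMD1 sites 2 and 3 were carried by 2 of 2 Symphalangus and 0 of 21 others (Fisher's exact test, adjusted p = 0.0411). That adjusted p is shared by all 526 sites with this distribution, whose unadjusted p of 0.00395 is the smallest that 2 against 21 animals can give. Since every listed site has at least 2 carriers, any site carried in Symphalangus alone has this distribution and this p. Without either Symphalangus animal 0 sites of the table were called by Fisher's exact test, although 530 had an unadjusted p under 0.05, the 3 sites of these genes among them. A genus of 1 animal cannot pass the adjusted threshold (lowest adjusted p = 0.471, Fisher's exact test), so that count says nothing about stability. With Benjamini-Yekutieli adjustment 0 were called (adjusted p = 0.378 for the 3 sites, Fisher's exact test).

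Sites of different genes had the same carriers. The sites carried by all 23 animals were those of NEMF and TYW1B, 3 each, among 916 in the table. EXOC6B site 5 and AGBL1 site 2 shared the H. moloch pair as carriers, a set found at 97 sites of the table in all. EXOC6B site 2 shared its carriers, H. moloch replicate 1 and H. muelleri, with 111 sites of the table in all. At 7 sites, USP32 sites 1, 3, 5 and 6, AGBL1 sites 1 and 3 and TYW1B site 2, the set of carriers occurs at no other site. AGBL1 site 4 is also the single site of the table with its 2 carriers.

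Across the 23 animals, each gene's number of carried sites was set beside those of 86 other gene names with at least 3 sites. NEMF was most like PTH2R (Pearson r = 0.787), and USP32 (r = 0.842) and COMMD1 (r = 0.937) were both most like UQCC1. EXOC6B (r = 0.834) and TYW1B (r = 0.691) were both most like ANKFY1, and AGBL1 was most like FUT8 (r = 0.587). The animals fall into genera, and these values describe that shared structure rather than independent points.

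Genes that work with the 6 were listed by pathway, and sites in their bodies were counted. For comparison, 1741 of 20524 protein-coding symbols in RefSeq (8.48%) bear at least 1 site in the gene body. Gene lengths were not taken into account, and the lists were matched to names by another rule than the symbols. Of 18 ribosome quality control genes, 5 (27.8%) held 6 sites, of which 1 was more frequent in Hylobates, 2 in Hoolock and none in Nomascus or Symphalangus. Of the whole table, 11.5% were more frequent in Hylobates and 18.7% in Hoolock. LTN1 encodes Listerin, the ligase that NEMF recruits, and had an antisense site of 1616 bp carried by 3 of 3 Hoolock and 0 of 20 others (Fisher's exact test, adjusted p = 0.00326). The site of ASCC3, a helicase gene of collided ribosome clearance, was carried by 5 of 5 Hylobates and 0 of 18 others (Fisher's exact test, adjusted p = 0.000841). GIGYF2, a translation repressor gene, had 1 site in all 23 animals and 1 in 2 Nomascus. KLHDC10 had a site in 3 of 3 Hoolock and 2 of 20 others (Fisher's exact test, adjusted p = 0.0299), and TRIP4 one in 7 animals, which was not called.

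Of 53 names of ubiquitin-specific proteases other than USP32, 9 (17.0%, against 8.48% of symbols) held 1 site each, against the 6 of USP32. Of these 9 sites, 2 were more frequent in Hylobates and 1 in Hoolock, against 11.5% and 18.7% of the whole table. USP28, USP50 and USP54 had sites in all 23 animals, USP54 being named outside the rule for named genes after its values were seen. The sites of USP45 (5 of 5 Hylobates and 0 of 18 others, adjusted p = 0.000841) and USP43 (4 of 5 and 0 of 18, adjusted p = 0.00924) were more frequent in Hylobates by Fisher's exact test. That of USP15 was more frequent in Hoolock (3 of 3 and 0 of 20, adjusted p = 0.00326, Fisher's exact test). USP1, USP16 and USP25 had sites in 2 to 4 animals and none was called.

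Of 17 genes that add or remove tubulin glutamates, only AGBL4 (5.88%, against 8.48% of symbols) held a site, 453 bp long and antisense. It was carried by 0 of 13 Nomascus and 8 of 10 others (Fisher's exact test, adjusted p = 0.0024), next to 0 of 13 and 7 of 10 at AGBL1 site 1, which has the same length and orientation. Of 15 Commander genes other than COMMD1, only C16orf62, now named VPS35L (6.67%), held a site, carried by 22 animals. The 11 other exocyst genes and the 6 other wybutosine genes, TYW1 among them, held 0 sites under their names.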

How the data were processed

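Per the labels' protocols, sheared blood DNA was made into Illumina libraries. The submitters' processing notes name BWA, and insertion caller, filters, build and annotation are unknown here. The deposited table holds calls (1 carried, 0 not carried, NA missing), positions, element lengths and gene names, per the file headers and values. All 23 call columns were matched to an animal by label, and replicates were numbered by order of deposit. Missing calls, 7 of 690 at these sites (1.01%) and 0.712% in all, were counted as not carried.

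The genes and lists were chosen with earlier results of these data known. All 30 sites of the 6 genes are named. Of each pathway list up to 8 genes with a site are named, and for each gene the 1 most similar in carried sites. The symbols other than TYW1B, 5 of 6, were found as protein-coding in RefSeq (Asia_NLE_v1), and TYW1B was not matched. RefSeq was used for names, gene types and the share of protein-coding symbols with a site, and not for positions. Names without a match, TYW1B among them, do not count towards that share. The pathway lists were matched to the names of the table, older names such as C16orf62 included, so their shares follow another rule. Each genus was tested against the other animals with two-sided Fisher's exact tests (scipy 1.17.1), adjusted by Benjamini-Hochberg over all 5490 sites. Tests were run on simulated calls drawn independently for each animal, and a pass condition was set for Nomascus and Hylobates only. Alternatives left out missing calls, adjusted by form, used Benjamini-Yekutieli and left out each animal. Intervals are exact Clopper-Pearson at 95%. Read depth is unknown. No sequences were used.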

Additional observations from a re-analysis of the deposited data

Results flagged for a closer look

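Within the 5 Hylobates animals, 9 counts of carried sites were examined for an animal far from the rest, and 2 were picked out. H. muelleri replicate 1 carried 1 AGBL1 site, while the other 4 Hylobates animals carried 2 each. H. pileatus replicate 1 carried 3 TYW1B sites, while the other 4 carried 4 each, the difference being TYW1B site 2. The threshold is set so that chance picks out about 1 in 20 groups of continuous values. These counts are whole numbers with a range of 1, for which any split of 4 against 1 is picked out, and the rate for such counts was not measured.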

How the results depend on the processing

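No paired analysis was possible because the labels carry no replicate numbers that groups share. Under Benjamini-Yekutieli adjustment the sites called over the whole table fell to 214 against 428 in Nomascus, 204 against 677 in Hylobates and 0 against 528 in Symphalangus, and the called sites of the 6 genes to 0 in Nomascus and 0 in Symphalangus. That adjustment is stricter by construction. With missing calls left out, 5 of the 30 sites were called in Hylobates, all as more frequent, NEMF sites 4 and 5 being the added pair. Whether that pair is 1 insertion was not tested. In the same setting 619 of the 5490 sites of the table were more frequent in Hylobates, against 630 in the main setting. When each animal was left out in turn, the whole table gave 352 to 660 called sites in Nomascus, 389 to 756 in Hylobates, 1001 to 1058 in Hoolock and 0 to 535 in Symphalangus. The 6 genes gave 3 to 6, 3 to 5, 3 to 3 and 0 to 3 sites in the same order. The Nomascus count moved to between 643 and 660 without any 1 Hoolock or Symphalangus animal, and the Hylobates count to 389 without H. moloch replicate 1, 426 without H. moloch replicate 2, 403 without H. muelleri and 421 to 424 without any 1 Nomascus animal. Without either S. syndactylus the Symphalangus count was 0, which says nothing about stability because a genus of 1 animal cannot pass the adjusted threshold (lowest adjusted p = 0.471, Fisher's exact test). Adjustment by site form changed no call at the 30 sites. The sense share was 34.5% with the NEMF pair counted once, against 36.7%. Read depth per animal is unknown and limits every call.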
